A study of Mus musculus with 4 samples.

Results

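Dividing microglia were examined in single-nucleus RNA sequencing (snRNA-seq) of mouse thalamus after an injection of Coll IV, a collagenase that opens the walls of small vessels and makes them bleed. The members were selected on their own transcripts, so the genes of the gate are described and not tested. A nucleus with at least 500 genes and less than 5% mitochondrial UMIs (unique molecular identifiers, which count captured transcripts) was taken as microglial in 2 steps. It had to hold at least 10 UMIs per 10000 of the leukocyte genes Ly86, Fyb and Ikzf1. It also had to hold at least 1 UMI of the microglial genes Siglech, P2ry12 and Cx3cr1, and more of these than of the macrophage genes F13a1, Mrc1, Ccr2 and Ms4a7. Members had at least 2 UMIs of Top2a and Mki67 together. The rule found 174 nuclei, out of 1656 gated microglia and 32241 nuclei kept. The 1482 gated microglia below 2 such UMIs are called other microglia here.

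The NS group received saline and the COL group received Coll IV at 0.01 U per 10 nl of saline, into the right VPM and VPL, the ventral posterior nuclei that relay touch and pain. The mice were wild-type C57BL6, 7 to 8 weeks old, and their tissue was taken 7 days after the injection. Their sex is not stated in the sources used here. Each of the 2 libraries of a group pooled 3 mice, so individual mice cannot be separated and n = 2 in each group. The libraries kept 9662 and 10384 nuclei of the NS group and 5930 and 6265 of the COL group. Between 8 and 30 barcodes were shared by a pair of libraries, and no barcode was that of a member in more than 1 library.

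Microglia are the resident phagocytes of the brain. They maintain their number by local division, which depends on signalling through the receptor Csf1r and is rare in the healthy adult. After injury they leave their branched resting form, switch on phagocytic and lipid-handling genes, and divide near the damage. A dividing cell first licenses its origins of replication under E2F transcription factors, then copies its DNA, and then builds the spindle and separates its chromosomes, a step whose genes are switched on late by a complex of B-Myb, FoxM1 and DREAM components.

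The 2 genes that chose the members illustrate that late programme. Top2a encodes the topoisomerase that untangles sister chromosomes, and Mki67 encodes the protein that coats mitotic chromosomes. Their promoters are printed first because the gate rests on these genes. Kif11, the motor that separates the spindle poles, and Brip1, a helicase of DNA repair during replication, follow as examples of the mitosis and DNA synthesis genes. These last genes were picked because they had the smallest p in their list among the genes with a matching motif. Each line gives the 200 bases before the start in RefSeq (GRCm38.p6), 5′ to 3′ on the strand of the gene, with capitals on matches to TTTGAA (the cell cycle homology region, CHR), to CCAAT, and to letters known to be bound by E2F (TTTCGCG or its variant TTTGGCG, and the form GCGGGAA), on either strand.
Top2a, chr11:99024190-99024389, minus strand: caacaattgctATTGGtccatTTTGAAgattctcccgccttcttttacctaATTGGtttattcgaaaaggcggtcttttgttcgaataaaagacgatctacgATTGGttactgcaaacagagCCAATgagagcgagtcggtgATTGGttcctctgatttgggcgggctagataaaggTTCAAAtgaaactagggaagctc
Mki67, chr7:135716380-135716579, minus strand: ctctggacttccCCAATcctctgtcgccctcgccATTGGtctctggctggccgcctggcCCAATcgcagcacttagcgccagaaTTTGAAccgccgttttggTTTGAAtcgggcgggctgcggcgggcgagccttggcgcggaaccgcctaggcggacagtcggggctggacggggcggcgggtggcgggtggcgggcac
Kif11, chr19:37376182-37376381, plus strand: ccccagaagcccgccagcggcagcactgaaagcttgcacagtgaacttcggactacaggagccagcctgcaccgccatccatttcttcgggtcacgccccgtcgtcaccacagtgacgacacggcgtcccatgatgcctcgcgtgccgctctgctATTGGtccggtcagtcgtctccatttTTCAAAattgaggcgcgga
Brip1, chr11:86201194-86201393, minus strand: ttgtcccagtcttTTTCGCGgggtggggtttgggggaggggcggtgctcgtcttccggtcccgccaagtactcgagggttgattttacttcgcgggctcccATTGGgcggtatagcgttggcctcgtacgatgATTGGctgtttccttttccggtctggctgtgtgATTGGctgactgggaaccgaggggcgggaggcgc

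TTTGAA stood 19 bases before the start of Kif11, read on the other strand, and 23 bases before that of Top2a. The upstream match of Top2a began 179 bases before the start, and those of Mki67 began 116 and 98 bases before it. Windows from 250 bases before to 50 after the start were searched for whole lists, in the 32851 windows of 27025 genes that the RefSeq table holds. TTTGAA was in 17.9% of all windows and in 67.2% of those of mitosis genes (45 of 67 windows, for 63 of 76 genes), against 9.09% of those of DNA synthesis genes (3 of 33, for 30 of 40 genes). TTTCGCG or TTTGGCG was in 2.37% of all windows, in 36.4% of the DNA synthesis windows and in 10.4% of the mitosis windows. GCGGGAA was in 4.60% of all windows, in 48.5% of the DNA synthesis windows and in 5.97% of the mitosis windows. CCAAT was frequent in both, at 66.7% and 68.7%, against 37.4% of all windows. The DNA synthesis and mitosis genes thus differed in the letters around their starts, and the letters are a description, not a measured site.

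Dividing microglia made up 17.6% ± 0.489 of gated microglia in the COL group and 0.568% ± 0.388 in the NS group (SD, n = 2 libraries each). The share was 17.3% in COL replicate 1 (65 of 376, exact Clopper-Pearson 95% interval 13.6 to 21.5%) and 18.0% in replicate 2 (105 of 584, 14.9 to 21.3%). It was 0.294% in NS replicate 1 (1 of 340, 0.00745 to 1.63%) and 0.843% in replicate 2 (3 of 356, 0.174 to 2.44%). Both COL libraries lay above both NS libraries, and the COL replicates were within each other's intervals, which cover counting error only. The difference was 17.1 percentage points, with p = 0.333 in a two-sided exact permutation test, which is the smallest p that 2 libraries against 2 allow. The members were defined by Top2a and Mki67 and put forward knowing that they lay mainly in the COL libraries. The share is therefore mainly a description.

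Depth differed between the groups. Gated microglia had a median of 2346.5 and 2104.5 UMIs in the NS libraries and 4161.5 and 4388 in the COL libraries. When each gated nucleus was thinned to 2000 UMIs and shallower nuclei were left out, the share was 10.6% and 11.5% in the COL libraries (39 of 368 and 66 of 576). In the NS libraries it was 0.441% and 1.52% (1 of 227 and 3 of 197). With the gate applied again after thinning it was 10.7% and 10.3% in the COL libraries (36 of 337 and 52 of 507) and 0.431% and 1.46% in the NS libraries. Both COL libraries stayed above both NS libraries, while the COL replicates changed places between the 2 ways of thinning. The COL values fell below those of the unthinned nuclei, since a thinned nucleus must still hold 2 UMIs of the pair.

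**Figure D1:**
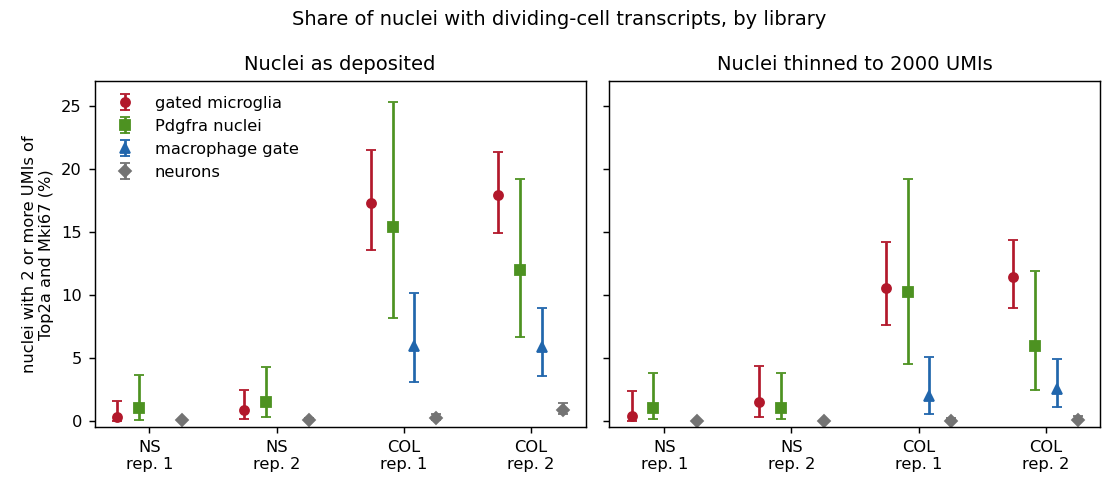
Share of nuclei with 2 or more UMIs of Top2a and Mki67 in each library (y axis, percent), for nuclei as deposited (left) and thinned to 2000 UMIs (right); points are libraries and bars are exact 95% binomial intervals. Gated microglia (red) of the COL libraries sit at 17.3% and 18.0% on the left and at 10.6% and 11.5% on the right. The macrophage gate is drawn for the COL libraries, since the NS libraries held 2 and 6 such nuclei.

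The dividing nuclei were also counted against the tissue as a whole. They were 1.10% and 1.68% of all nuclei kept in the COL libraries and 0.0103% and 0.0289% in the NS libraries. Other microglia were 3.51% and 3.40% of nuclei in the NS libraries and 5.24% and 7.65% in the COL libraries, and the groups again did not overlap (exact permutation p = 0.333). Nuclei of other kinds were counted by the same 2 genes. In the COL libraries, 5.94% (12 of 202) and 5.86% (19 of 324) of nuclei passing the macrophage gate held 2 or more UMIs, at median depths of 4630 and 4754 UMIs. Nuclei with at least 5 UMIs per 10000 of Pdgfra, the receptor of oligodendrocyte precursors, a threshold chosen after the values were seen, were dividing by this count in 12 of 78 (8.21 to 25.3%) and 14 of 117 (6.70 to 19.3%) cases at median depths of 7436.5 and 7449 UMIs, against 1.03% and 1.48% in the NS libraries. The wider class planned first had at least 10 UMIs per 10000 of Pdgfra, Cspg4 and Lhfpl3 together. It gave 1.88% (36 of 1912) and 2.48% (44 of 1771) in the COL libraries, and 0.839% and 0.737% in thinned nuclei. In nuclei thinned to 2000 UMIs, 10.3% and 5.98% of Pdgfra nuclei were dividing by this count, beside the 10.6% and 11.5% of microglia, a difference that was not tested. Neurons, which do not divide, gave the background and reached 0.229% and 0.918% in the COL libraries although their median depth was 10258.5 and 12278 UMIs, and 0.0519% and 0.0871% in the NS libraries.

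The threshold of 2 UMIs cut a continuous range. Members of the COL libraries held between 2 and 29 UMIs of the pair with a median of 6, and 19 and 35 of them held 10 or more. Just inside the threshold were 10 and 12 nuclei with exactly 2 UMIs, with a median of 31.5 and 10 UMIs of the mitosis genes and 36.5 and 13 of the DNA synthesis genes. Just outside it were 20 and 48 nuclei with exactly 1 UMI, with a median of 4.5 and 3 mitosis UMIs and 5 and 4 DNA synthesis UMIs. Nuclei with no UMI of the pair had medians of 2 mitosis UMIs and of 1 and 2 DNA synthesis UMIs. Nuclei with 1 UMI thus lay between the members and the rest, and 4 of 20 and 13 of 48 of them had 10 or more mitosis UMIs. Of the nuclei with exactly 2 UMIs, 7 of 10 and 6 of 12 did, so some members just inside the threshold held few mitosis UMIs.

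Markers of microglia were counted in the members, of which Csf1r was not used by the gate. Ly86, a secreted partner of a Toll-like receptor homologue, was at 1983 and 1607 CPM (the UMIs of a gene per sum of all UMIs of the class, on the usual scale) in dividing microglia of the COL libraries and at 1961 and 1655 CPM in other microglia. Csf1r, the growth factor receptor, had a UMI in 59 of 65 and 103 of 105 members. Neurons, which should lack it, had a UMI in 9.16% and 17.7% at their greater depth. In nuclei of the macrophage gate 52.5% and 59.9% had one, at 202 and 250 CPM, so Csf1r is shared with that class. Csf1r was at 441 and 488 CPM in dividing and 507 and 642 CPM in other microglia, a log2 fold change of -0.30 ± 0.13 (SE) that did not pass the test (adjusted p = 0.165, edgeR). Siglech, a lectin of microglia, was at 291 and 221 CPM in the members and 589 and 471 CPM in other microglia, and 38 of 65 and 67 of 105 members had a UMI of it. P2ry12, the ADP receptor of resting microglia, was at 405 and 402 CPM against 426 and 404. Being gate genes, Siglech, P2ry12 and Ly86 have no test. Top2a was at 515 and 574 CPM in members and at 6.15 and 8.95 CPM in other microglia, and Mki67 at 472 and 463 against 7.52 and 11.5 CPM, by construction of the rule.

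Markers of other cell types were counted in the members. The list of 15 macrophage genes not used by the gate summed to 5.04 and 6.33 UMIs per 10000 in dividing microglia, 4.51 and 6.03 in other microglia and 30.4 and 24.0 in nuclei of the macrophage gate. Of these genes Cd163 and Ly6c2 were at 0 in the members of both COL libraries. In COL replicate 2, Cd163 was also at 0 in other microglia and in nuclei of the macrophage gate. The 4 genes that define the macrophage gate, which have no test, summed to 0.590 and 0.963 UMIs per 10000 in members and 0.444 and 0.622 in other microglia. One of them, the mannose receptor Mrc1, had a UMI in 13.8% and 21.9% of members and in 3.86% and 6.68% of other microglia. Its level was 38.7 and 69.0 CPM against 17.8 and 22.2 CPM, and 205 and 135 CPM in nuclei of the macrophage gate. The other genes of this gate were not higher in members of both COL libraries. Ccr2 was at 2.03 and 8.33 CPM in members and 8.89 and 8.95 CPM in other microglia. Ms4a7 was at 0 and 5.95 against 4.79 and 6.39 CPM. F13a1 was higher in members in COL replicate 1 and lower in COL replicate 2. The 13 T and NK cell genes summed to 0.773 and 0.178 in members and 1.08 and 1.38 in other microglia, with Cd3e, Cd3d, Cd3g, Gzmb and Klrk1 at 0 in members of both COL libraries. The 10 neuronal genes summed to 18.5 and 17.8 UMIs per 10000 in members and 27.5 and 20.8 in other microglia. Neuronal transcripts were present in both classes and lower in the members, and their part in the results below was not tested.

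The 4 NS members were described as counts only. The nucleus of replicate 1 held 2944 UMIs, 12 of the gate pair, 76 of mitosis genes and 11 of DNA synthesis genes. It had Cx3cr1 UMIs but none of Siglech, P2ry12 or Csf1r. The 3 nuclei of replicate 2 held 11, 3 and 4 UMIs of the pair, 77, 9 and 63 mitosis UMIs and 4, 14 and 6 DNA synthesis UMIs, and each had UMIs of P2ry12 and Csf1r but none of Siglech. In 3 of these 4 nuclei the mitosis UMIs far outnumbered the DNA synthesis UMIs at a depth of at most 4065 UMIs. They were too few for a sum of their own in a test.

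Members of the COL libraries held transcripts of all stages of division. The 76 mitosis genes, Top2a and Mki67 not among them, had a median of 56 UMIs per member in replicate 1 (2 to 141) and of 50 in replicate 2 (2 to 207). The 40 DNA synthesis genes had a median of 25 (2 to 89) and 21 (0 to 93). Mitosis UMIs outnumbered DNA synthesis UMIs in 48 of 65 and 78 of 105 members, DNA synthesis UMIs were more numerous in 15 and 26, and 2 and 1 had equal numbers. The lists differ in size and the gate used 2 late genes, so these numbers order the nuclei and do not give the length of a stage. After thinning to 2000 UMIs the same counts were 48 of 65 and 80 of 105 with more mitosis UMIs. At least 1 UMI of the late genes Ccnb1, Plk1, Cdc20, Aurka, Ube2c and Ccnb2 was found in 30 of 65 and 50 of 105 members.

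**Figure D2:**
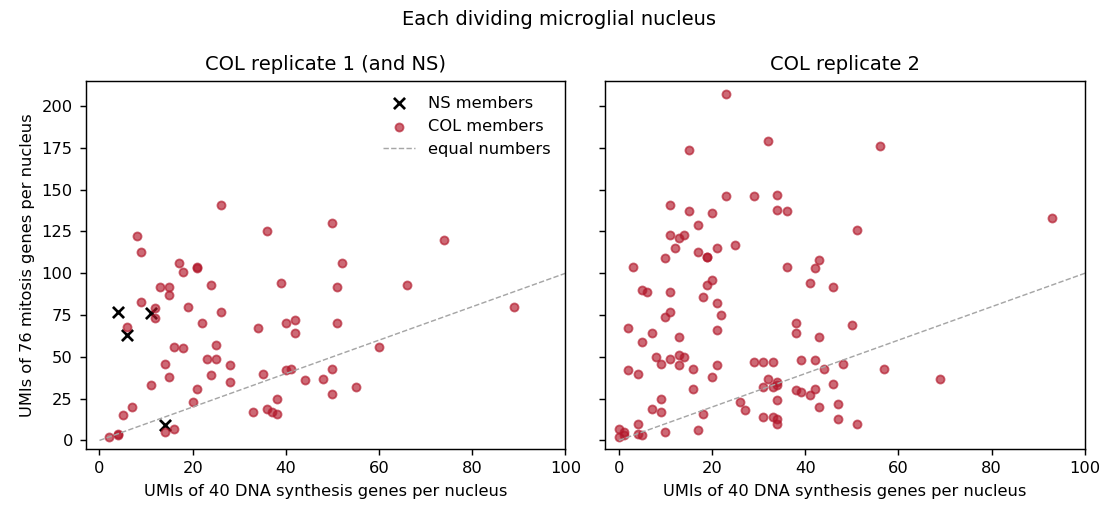
Each point is a dividing microglial nucleus, with the UMIs of the 40 DNA synthesis genes on the x axis and of the 76 mitosis genes on the y axis; crosses are the 4 NS members and the dashed line marks equal numbers. Most points lie above the line, 48 of 65 in COL replicate 1 and 78 of 105 in replicate 2, and they fill the space between both axes without a gap.

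The members with more DNA synthesis UMIs differed in the levels of several genes from those with more mitosis UMIs. The split was made on the lists themselves and is a description. Knl1, a kinetochore scaffold, was at 34.9 and 50.9 CPM in the synthesis-rich members and at 542 and 415 CPM in the mitosis-rich members. Pola1, the catalytic subunit of the polymerase that primes replication, was at 567 and 537 CPM against 264 and 207. Hells, a chromatin remodeller of replicating cells, was at 192 and 134 against 24.5 and 35.5 CPM. Not every gene of the DNA synthesis list followed the split. Ezh2 went the other way, at 218 and 185 CPM in the synthesis-rich and 294 and 257 CPM in the mitosis-rich members. Rrm2 was at 17.5 and 18.5 against 10.9 and 25.8 CPM, so its direction differed between the replicates. Cdkn2c, an inhibitor of the kinases Cdk4 and Cdk6 that is on neither list, had 1 and 0 UMIs in the 15 and 26 synthesis-rich members and 11 and 24 UMIs in the 48 and 78 mitosis-rich members. Ccnd3, a D-type cyclin, was at 113 and 74.1 CPM in the synthesis-rich and at 117 and 92.0 CPM in the mitosis-rich members.

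DNA synthesis genes were also seen in other microglia of the COL libraries. At least 10 UMIs of these genes were held by 35 of 311 (11.3%) and 41 of 479 (8.56%) other microglia, against 2 of 339 (0.590%) and 1 of 353 (0.283%) in the NS libraries. In nuclei thinned to 2000 UMIs, 5 or more such UMIs were held by 9.24% and 7.22% in the COL libraries. In the NS libraries they were held by 0 of 226 (exact 95% upper limit 1.62%) and by 0.515%. The gate on Top2a and Mki67 therefore left out nuclei with DNA synthesis transcripts, and the comparisons below set members against a class that holds some of them.

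The central comparison asked which genes differ between dividing and other microglia of the same injured tissue. UMIs were summed over each class in each COL library, and the 4 sums were tested with edgeR's quasi-likelihood F test, with the library as a block and Benjamini-Hochberg adjustment over 11321 genes. The sums held 491588 and 840770 UMIs for dividing microglia (65 and 105 nuclei) and 1462373 and 2346371 for other microglia (311 and 479 nuclei). At an adjusted p under 0.05, 642 genes (5.67% of those tested) were higher in dividing microglia and 279 (2.46%) were lower. The median log2 fold change was 1.37 among the higher genes and -0.77 among the lower genes, against -0.01 over all genes tested. A member had a median of 6527 and 6701 UMIs in the COL libraries, 1.67 and 1.64 times the median of other microglia. With every nucleus thinned to 2000 UMIs, 390 genes were higher and 192 lower, of 7248 tested, and 358 and 120 of these were among the calls above. DESeq2 called 200 higher and 11 lower, all of them among the calls above. Leaving out a COL library changed the fit as well as the data. Each class then had a lone COL sum, and the sums of other microglia of both NS libraries were added, without a block. The spread came from those NS sums, and fewer genes were called in both directions.

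**Figure D3:**
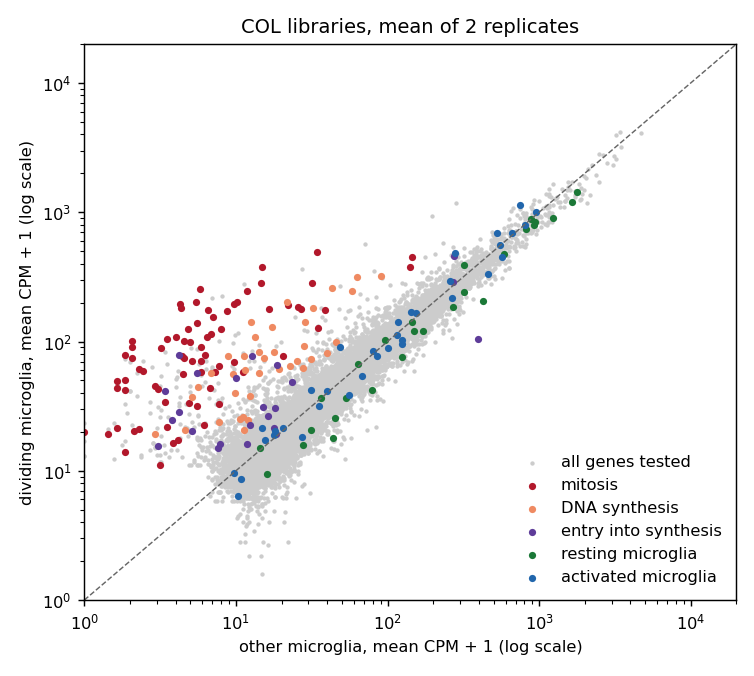
Mean level of each of the 11321 genes tested in other microglia (x axis) and dividing microglia (y axis) of the COL libraries, in TMM-scaled CPM + 1 on log scales, n = 2 libraries; the dashed line marks equal levels. Mitosis genes (red) and DNA synthesis genes (orange) lie above the line, while 23 of 27 genes of resting microglia (green) have a log2 fold change below 0 and those of activated microglia (blue) lie on both sides, 18 above and 17 below 0.

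Mitosis genes gave the most calls of any list. Of the 76 on the list, 73 were tested and 72 were higher in dividing microglia, against 5.67% of all genes tested, with a median log2 fold change of 4.20 (1.43 to 7.65 over the tested genes). The exception was Ube2c, the ubiquitin-conjugating enzyme of mitotic exit, at 10.2 and 9.52 CPM in members against 2.05 and 2.13 (log2 fold change 2.17 ± 0.75, adjusted p = 0.0726). Because the gate used 2 genes of the same programme, the direction of this list follows in part from how the members were chosen. Knl1 was at 413 and 320 CPM in dividing and 17.1 and 9.80 CPM in other microglia (log2 fold change 4.81 ± 0.20, adjusted p = 1.02e-17). Kif11 was at 260 and 235 against 3.42 and 5.97 CPM (5.60 ± 0.25, adjusted p = 4.54e-17). Members had a UMI of Kif11 in 73.8% and 66.7%, against 1.61% and 2.09% of other microglia and 2.47% and 3.11% of the deeper neurons. Thinning kept 58 of the 58 mitosis genes it could test, and DESeq2 kept 63. Without COL replicate 1 there were 60 calls, and without COL replicate 2 there were 37 among 66 tested.

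The 10 called genes with the largest fold change and at least 50 CPM in dividing microglia, the class where they are high, were Kif23, Kif14, Hmmr, Prr11, Parpbp, Prc1, Sgo2a, Kif11, Kif4 and Cdca8. They were chosen for their size and for the same direction in both COL libraries, so their folds are a description. Most act on the spindle or at the end of mitosis. Kif23 and Prc1 build the midzone where the cell divides, Sgo2a protects the cohesion of sister chromosomes, Hmmr organises spindle poles, and Cdca8 belongs to the chromosomal passenger complex. Kif23 had 39 and 97 UMIs in dividing and 0 and 5 in other microglia, where the class as a whole had 2.86 times the UMIs. The ratio of its pooled levels was 77.8, with an exact interval for counting error of 32.5 to 243. Prc1 had 80 and 180 UMIs against 2 and 12, a ratio of 53.1 (31.1 to 98.5). None of the 10 had more than 14 UMIs in other microglia of either library, so the sizes of these folds rest on few counts in the lower class.

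DNA synthesis genes were higher too, a direction that follows in part from the gate, which used 2 genes of dividing cells. Of 40, 38 were tested and 36 were higher, against 5.67% of all genes tested, with a median log2 fold change of 2.24 and none lower. DESeq2 called 21 of them, and 19 and 14 were called without COL replicate 1 and 2. Ezh2, the methyltransferase of the Polycomb complex, was at 271 and 237 CPM in members, 43.1 and 38.8 CPM in other COL microglia and 24.7 and 22.8 CPM in other NS microglia (log2 fold change 2.63 ± 0.17, adjusted p = 2.53e-13). Brip1 was at 216 and 175 CPM against 18.5 and 21.7 (3.23 ± 0.21, adjusted p = 1.37e-13), and other NS microglia had 1.03 and 0 CPM. Polq, the polymerase of end joining, had the largest change of the list (3.60 ± 0.25, adjusted p = 6.82e-13). Levels of Ezh2 and Brip1 in other COL microglia were above those in other NS microglia in both libraries, a contrast that was not tested. Pcna, the sliding clamp, was at 24.4 and 21.4 CPM against 9.57 and 11.9 and did not pass the test (1.04 ± 0.40, adjusted p = 0.124).

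Among 28 genes of entry into DNA synthesis, 23 were tested, of which 13 were higher and 1 lower, against 5.67% and 2.46% of all genes tested (median log2 fold change 1.10). Here too the direction follows in part from the gate. Without the replicate block 8 were higher, and with DESeq2 5 were. The median was 1.13 without COL replicate 1 and 1.17 without COL replicate 2. The atypical E2F genes E2f7 and E2f8, which shut the programme down once replication is under way, had 4.58 ± 0.37 and 3.93 ± 0.45 (adjusted p = 3.30e-11 and 5.74e-08). E2f7 was at 93.6 and 57.1 CPM in members and at 4.10 and 2.13 CPM in other microglia. Mcm10 and Cdc45, which convert a licensed origin into a moving fork, had 3.49 ± 0.38 and 3.07 ± 0.52. Cyclin E2 (Ccne2), which drives entry into DNA synthesis, was at 67.1 and 32.1 against 8.21 and 9.38 CPM (2.34 ± 0.36, adjusted p = 1.49e-05). E2f3, already at 285 and 245 CPM in other microglia, was at 533 and 350 CPM in members (0.70 ± 0.14, adjusted p = 0.000516). E2f3 was not called without the replicate block, with DESeq2 or without either COL library, and Cdc45 was not called with DESeq2 or without either COL library. Ccne2 was not called without COL replicate 1, nor E2f8 and Mcm10 without COL replicate 2.

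Ccnd3 was the exception of that list. This D-type cyclin, which carries growth signals to the retinoblastoma protein in blood cells, was at 116 and 86.8 CPM in dividing microglia and at 397 and 369 CPM in other COL microglia. The log2 fold change was -1.94 ± 0.16 with an adjusted p of 5.10e-11, and the level in other NS microglia was 310 and 413 CPM. Both dividing sums lay below all 4 others, in the mitosis-rich and in the synthesis-rich members alike. Without COL replicate 2 its log2 fold change was -1.81, with an adjusted p of 0.0546. Ccnd1, the other D-type cyclin tested, was at 12.2 and 23.8 CPM against 14.4 and 19.6 (0.12 ± 0.38, adjusted p = 0.928).

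Of 21 inhibitors of division, 15 were tested, 3 were higher and none lower, against 5.67% and 2.46% of all genes tested, with a median log2 fold change of 0.28. Cdkn2c had 12 and 24 UMIs in members and 2 and 1 in other microglia (4.93 ± 0.66, adjusted p = 1.22e-06). The retinoblastoma relative Rbl1, which holds E2F genes down outside of division, was at 122 and 113 CPM, with 60 and 95 UMIs against 41 and 59 in the larger sums of other microglia (2.15 ± 0.22, adjusted p = 5.58e-09). Cdkn2a, whose locus encodes an inhibitor of Cdk4 and Cdk6 and the p53 activator Arf, had 5 and 17 UMIs against 1 and 7 (2.93 ± 0.65, adjusted p = 0.00237). The files do not separate its 2 products, and DESeq2 did not call it. The call of Cdkn2a was lost without COL replicate 1, and that of Cdkn2c without either COL library. Cdkn1a, the p53 target that arrests cells, was at 24.4 and 17.8 CPM against 10.9 and 16.2 (0.54 ± 0.40, adjusted p = 0.536). Rb1 was at 266 and 268 against 239 and 206 CPM (0.28 ± 0.14, adjusted p = 0.311).

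**Figure D4:**
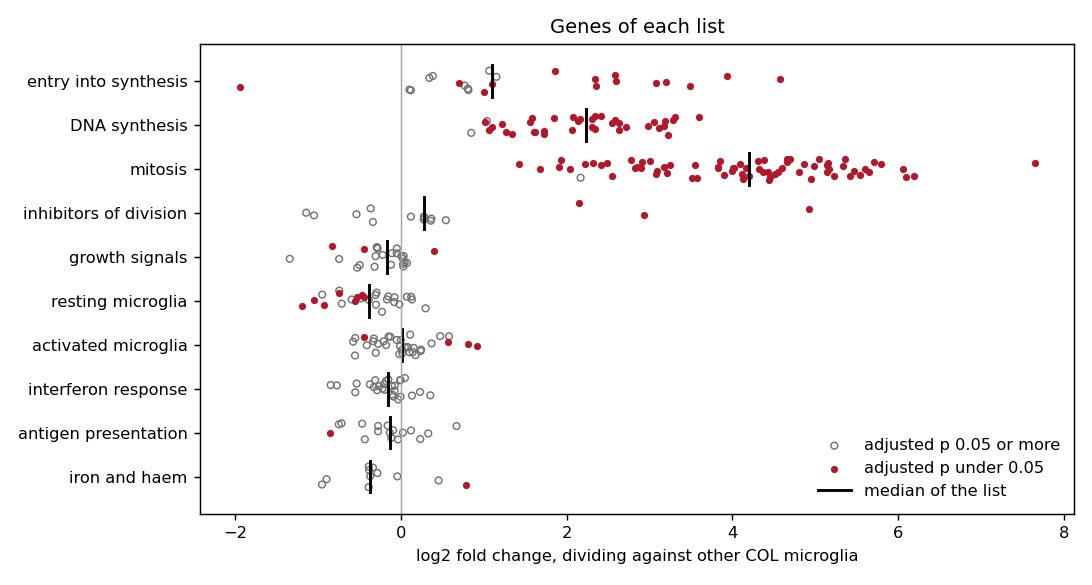
Log2 fold change of each tested gene (x axis) in dividing against other COL microglia, by list (y axis); filled points have an adjusted p under 0.05 and the black bar is the median of the list. The medians of the division lists are 1.10, 2.24 and 4.20, that of the resting list is -0.39 with 23 of 27 genes below 0, and that of the activated list is 0.02.

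Of 28 genes of growth signals, 24 were tested, 1 was higher and 2 were lower, against 5.67% and 2.46% of all genes tested, with a median log2 fold change of -0.17. Runx1, a transcription factor of myeloid growth, was at 1668 and 1524 CPM in members, 1195 and 1223 CPM in other COL microglia and 722 and 882 CPM in other NS microglia (0.40 ± 0.11, adjusted p = 0.0157). Its call was lost in thinned nuclei and without the replicate block. The receptor of interleukin 10, Il10ra, was at 91.5 and 91.6 against 168 and 159 CPM (-0.83 ± 0.18, adjusted p = 0.00129). The TGF-beta receptor Tgfbr1 was at 863 and 888 against 1297 and 1097 CPM (-0.44 ± 0.12, adjusted p = 0.0117). When other microglia below a cut-off set at a percentile of member depth were left out, neither Il10ra nor Tgfbr1 was called. That cut-off kept 145 of 311 and 258 of 479 other microglia. Il10ra was also lost in thinned nuclei, and Tgfbr1 without the replicate block and with nuclei left out that held at least 25% of another lineage's marker level. With DESeq2, or without either COL library, none of the 3 was. The remaining 21 genes, Csf1r and the adaptor Tyrobp among them, did not pass the test.

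Genes of resting microglia were lower in part. Of 28, 27 were tested, none was higher and 8 were lower (Entpd1, Adgrg1, Cd33, Gpr34, Cst3, Sparc, Mertk and Tgfbr1), against 2.46% of all genes tested, and the median log2 fold change was -0.39. Without the replicate block 1 was lower, with DESeq2 1 was lower, and without either COL library in turn 0 were, while the median stayed between -0.44 and -0.31. Entpd1, the ectonucleotidase CD39 that clears extracellular ATP, was at 228 and 169 CPM in members, 466 and 355 in other COL microglia and 574 and 708 in other NS microglia (-1.05 ± 0.14, adjusted p = 1.62e-06). The 3 classes did not overlap for this gene. Mertk, a receptor for dying cells, was at 1280 and 1043 against 1574 and 1626 CPM (-0.47 ± 0.11, adjusted p = 0.00500). The call of Mertk was lost without the replicate block, with DESeq2 and with shallow other microglia left out. The list had 2 lower genes and a median of -0.21 when shallow other microglia were left out, which kept 145 of 311 and 258 of 479 of them. In thinned nuclei it had 7 lower genes of 25 tested and a median of -0.44. Entpd1 was among the calls both times. Tmem119, a gene used to define microglia, was at 32.5 and 36.9 against 58.8 and 42.6 CPM and did not pass the test (-0.48 ± 0.27, adjusted p = 0.362).

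Genes of activated, lipid-handling microglia showed no common direction. Of 38, 35 were tested, 3 were higher and 1 lower, against 5.67% and 2.46% of all genes tested, and the median was 0.02. None of these 4 was called without the replicate block or with DESeq2. Their calls were also lost with either COL library left out, a fit with a lone dividing sum. Apobec1, an RNA-editing enzyme, was at 452 and 486 CPM in members, 200 and 343 in other COL microglia and 91.8 and 125 in other NS microglia (0.81 ± 0.15, adjusted p = 0.000182). Lpl, a lipase of lipid uptake, was at 61.0 and 115 against 27.4 and 65.6 CPM, and at 4.12 and 2.40 CPM in other NS microglia (0.92 ± 0.22, adjusted p = 0.00394). Arhgap24, a regulator of Rac, was at 1286 and 911 against 704 and 755 CPM (0.57 ± 0.13, adjusted p = 0.00243). Apoe, the lipid carrier, was lower at 134 and 519 against 169 and 736 CPM (-0.44 ± 0.14, adjusted p = 0.0461), and here the 2 libraries differed from each other by more than the classes did. The calls of Lpl and Apoe were lost in thinned nuclei, and of these 4 genes only Apobec1 was called with shallow other microglia left out. Gpnmb and Spp1, secreted or lysosomal products of phagocytes, were at 42.7 and 61.8 against 20.5 and 111 CPM and at 104 and 224 against 75.9 and 205 CPM, and neither passed the test.

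Over the 3 lists of immune and iron genes, 1 gene was higher and 1 lower, against 5.67% and 2.46% of all genes tested. None of the 27 tested interferon response genes (of 35) was called by edgeR, with 2 at an unadjusted p under 0.05, both lower, and a median of -0.15. Of the 27, 23 had a log2 fold change below 0, the same number as in the resting list and against 5771 of the 11321 genes tested. DESeq2 called none of them either. Of 17 tested antigen presentation genes (of 19), the 1 called was Cd86, the costimulatory ligand of T cells, at 134 and 157 against 267 and 264 CPM (-0.85 ± 0.16, adjusted p = 0.000226). Other NS microglia had 236 and 265 CPM of Cd86, so the members lay below both other classes. Of 11 tested iron and haem genes (of 14), the 1 called was Hmox1, the enzyme that degrades haem, at 159 and 232 against 123 and 108 CPM (0.79 ± 0.17, adjusted p = 0.00201). Hmox1 was at 0 in other NS microglia of both libraries, and its UMIs lay in 14 of 48 and 22 of 78 mitosis-rich members and in 4 of 15 and 11 of 26 synthesis-rich members. Hmox1 was not called with shallow other microglia left out, without the replicate block, with DESeq2 or without either COL library, and Cd86 was not called with DESeq2 or without either COL library.

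**Figure D5:**
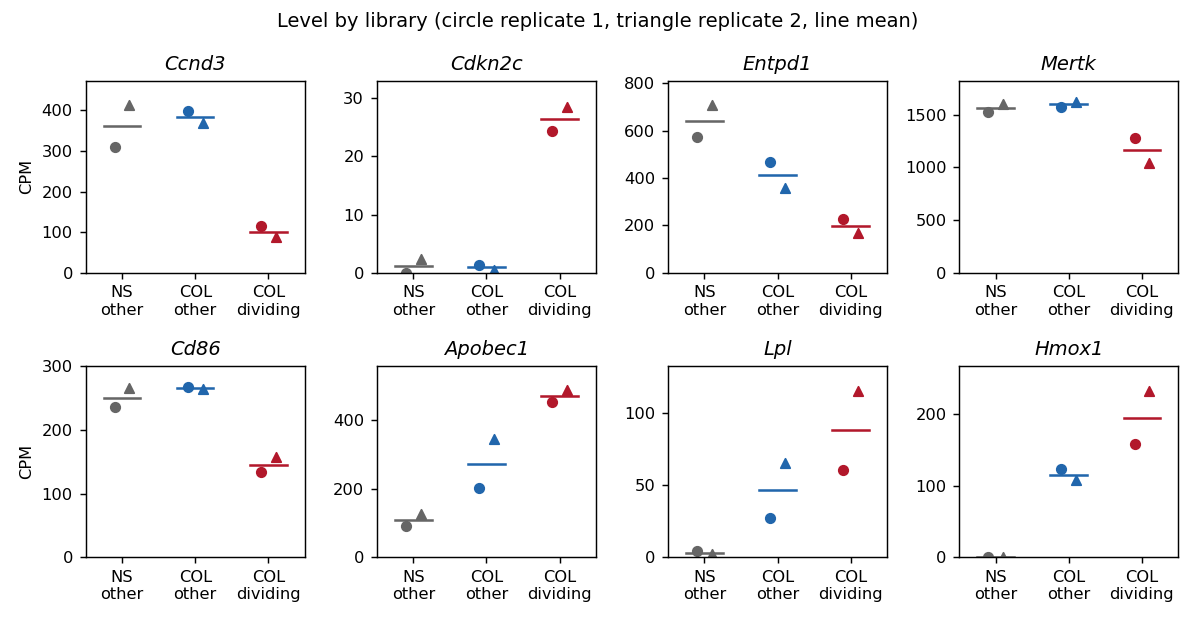
Level of 8 genes (CPM of the summed nuclei, linear axes from 0) in other NS microglia, other COL microglia and dividing COL microglia; circles are replicate 1, triangles replicate 2 and lines means of 2. Ccnd3, Entpd1, Mertk and Cd86 are lowest in dividing microglia, and Cdkn2c, Apobec1 and Hmox1 are highest there, while Lpl overlaps between the COL classes.

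The 10 called genes with the smallest fold change and at least 50 CPM in other microglia were Gm13710, Tns1, Ccnd3, Skap1, Bcl11a, Ifitm10, Cdh23, P3h2, Gm35188 and Arap3. The same direction in both COL libraries was a condition of this choice. Agreement of the COL replicates between members and other microglia therefore follows from it. P3h2, a collagen prolyl hydroxylase, was at 132 and 71.4 CPM in members, 289 and 228 in other COL microglia and 403 and 484 in other NS microglia (-1.40 ± 0.17, adjusted p = 2.54e-07). Tns1, an adaptor of focal adhesions, was at 26.4 and 14.3 against 78.6 and 82.7 CPM (-2.08 ± 0.29, adjusted p = 2.14e-06). The unnamed transcript Gm35188 was at 30.5 and 38.1 against 55.4 and 118 CPM, and at 463 and 601 CPM in other NS microglia. Members lay below other COL microglia for these 3 genes by that choice. For P3h2 and Gm35188, both COL classes also lay below other NS microglia, a contrast that was not tested. Each of the 3 genes lost its call without COL replicate 2. Gm35188 was also not called without the replicate block or with DESeq2.

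Transcripts richer in other cell types were counted among the lower genes, at a share near that of all genes tested. Of the 279 lower genes, 95 (34.1%) were at a higher level in nuclei below the leukocyte threshold than in other microglia of both COL libraries, against 96 of the 642 higher genes and 29.5% of all genes tested. Skap1 and Cd247, adaptors of T cell signalling, were lower in members (-1.93 ± 0.35 and -2.69 ± 0.61), with 12 and 7 UMIs of Skap1 in members and 75 and 138 in other microglia. When nuclei with at least 50% of the marker level of another lineage were left out, an alternative chosen after seeing the data, the change of Skap1 turned to 0.26 (adjusted p = 0.824). The call of Skap1 was also lost with DESeq2 and without COL replicate 2, and that of Cd247 with DESeq2, without the replicate block and without either COL library. Of 10 tested neuronal genes 2 were lower (Nrg1 and Snap25) and 3 had a change above 0, and of 6 tested astrocyte genes 3 were lower (Slc1a3, Slc4a4 and Gpc5), against 2.46% of all genes tested. Without the replicate block none of these neuronal genes and 1 astrocyte gene was called. With nuclei left out at 50%, Nrg1, Snap25 and Slc1a3 stayed called as lower, Slc4a4 and Gpc5 did not, and the lower genes rose in number from 279 to 507. With nuclei left out at 25%, of these 5 genes only Slc1a3 stayed called, and none of 8 tested neuronal genes was lower (median -0.09). With DESeq2 only Nrg1 of the 5 was called. Slc1a3 was at 77.3 and 50.0 against 135 and 126 CPM (-1.09 ± 0.20, adjusted p = 0.000249). Csf3r, the receptor of granulocyte colony-stimulating factor, was at 303 and 319 against 507 and 470 CPM (-0.64 ± 0.13, adjusted p = 0.00111), a call lost with DESeq2, without the replicate block and without either COL library. The part of RNA from other cells in the lower calls was not tested.

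Fn1 was the 1 macrophage gene of 7 tested (of 15) that was called, against 5.67% higher and 2.46% lower of all genes tested. This matrix protein was at 102 and 252 CPM in members, 67.7 and 95.5 CPM in other COL microglia, with 0 and 1 UMI in other NS microglia (1.11 ± 0.18, adjusted p = 5.48e-05). Its UMIs lay in 3 of 15 and 9 of 26 synthesis-rich members and in 11 of 48 and 21 of 78 mitosis-rich members. In COL replicate 1 those 3 synthesis-rich nuclei held 26 of its 50 UMIs, so the level of the class rests on few nuclei. The other 6 genes did not pass the test, and the list's median was -0.36. Fn1 was not called when nuclei with at least 25% of another lineage's marker level were left out, without the replicate block, with DESeq2 or without COL replicate 2. None of the 8 tested genes of oligodendrocyte precursors was called.

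Outside the 3 lists of G1/S, DNA synthesis and mitosis genes, 521 of the 642 higher genes remained. The lists, of 28, 40 and 76 genes, do not name every gene of division. Prr11 and Parpbp, among the 10 largest folds above, are on none of them. The 521 genes were not sorted by their part in division. The genes that follow were chosen after their values were seen. Cbx5, heterochromatin protein 1 alpha, was at 299 and 306 CPM in members and 98.5 and 78.8 in other COL microglia (1.79 ± 0.16, adjusted p = 1.78e-10). Nsd2, a histone H3 methyltransferase, was at 488 and 391 against 176 and 164 CPM (1.36 ± 0.14, adjusted p = 5.79e-09). The long noncoding transcript Gm14005 was at 557 and 577 CPM in members, 207 and 243 in other COL microglia and 59.8 and 34.8 in other NS microglia (1.33 ± 0.13, adjusted p = 3.10e-09). Levels of Gm14005 did not overlap between the 3 classes, although its call was lost without COL replicate 2, and Cbx5 and Nsd2 were called under each alternative tried.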

How the data were processed

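Nuclei of 4 thalamic libraries (NS and COL, 2 each, 3 pooled mice per library) were sequenced on the 10x Genomics platform. Raw UMI counts of each gene in each nucleus were deposited by the authors, made with Cell Ranger (1.2.0 in the submitters' processing notes) against mm10, without normalization. Replicates of a group are separate libraries. The members and lists were chosen with earlier results of these data known. Analyses ran in Python 3.11.15 and R 4.3.3. Classes with at least 20 nuclei were summed per library and tested in edgeR 4.0.16 (TMM, filterByExpr, 12 gate genes left out of the tests), with DESeq2 1.42.0 as an alternative. The library was a block, since both sums of a library come from the same mice (correlation of their deviations 0.345 over 11332 genes). With 1 residual degree of freedom, the tests lean on the spread shared across genes. On simulated sums of this comparison (10776 genes, 200 changed), edgeR recovered 47% of changes of fold 2 and 86% of fold 4, with 2 false calls. DESeq2 recovered 8% and 63% on these sums, with 0 false calls. The simulation drew from the model and spread that edgeR fitted, with the same change in both libraries. Its false calls therefore do not measure the error rate in the real nuclei. Named genes were, per list, up to 12 by smallest p, and the 10 largest and smallest folds. No doublet caller or removal of free RNA was applied. Mixed nuclei were left out as an alternative.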

Additional observations from a re-analysis of the deposited data

How the results depend on the processing

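The difference in share was positive under each alternative, from 5.41 points (thinned to 1000 UMIs) to 30.5 points (nuclei with at least 25% of another lineage's marker level left out, 239 of 311 and 340 of 479 other microglia but 34 of 65 and 41 of 105 members of the COL libraries, so the denominator shrank more), and 16.7 to 17.4 points when a library was left out. Its p could not fall below 0.333. The counts of genes moved more. Without the replicate block, 322 genes were higher and 33 lower. The block is part of the design, and losing it does not by itself make an effect weaker. DESeq2 called 200 higher and 11 lower. Thinned nuclei gave 390 higher genes, and leaving out mixed nuclei at 50%, which was chosen after seeing the data, gave 507 lower genes. Leaving out COL replicate 1 or 2, where the lone dividing sum is assumed to vary like the other groups, gave 93 to 178 higher and 2 to 18 lower genes. The remaining alternatives kept both counts within 1.5 times. Of 68 called genes named here, 23 stayed called under each alternative run on them. Skap1 alone turned, to 0.26 with mixed nuclei left out at 50%. Counts under about 10 UMIs in other microglia limit the size of the largest folds.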
